A study of Mus musculus with 18 samples.

Results

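The negative feedback genes and target genes of canonical Wnt signaling were followed here through 18 bulk RNA-sequencing libraries of mouse duodenal epithelium. The 10 members, found by symbol in the table of each time point, were Axin2, Rnf43, Znrf3, Nkd1, Notum, Sp5, Tnfrsf19, Apcdd1, Bambi and Prox1, of 16414 genes present in all 3 tables. Libraries came from 3 WT (Mtgr1+/+) and 3 Mtgr1-/- mice, littermates of both sexes that were age-matched and, for the cultures, 8 to 12 weeks old. The null allele is carried in every tissue and is not limited to the gut. Each mouse gave crypts at isolation (day 0), enteroids 24 h after plating (day 1) and enteroids 72 h after plating (day 3), with 3 libraries for each genotype and time point. Enteroids are epithelial organoids, grown here in Matrigel under a medium with EGF, Noggin and R-spondin, which was the same for both genotypes. Mtgr1 codes for a transcriptional corepressor of the MTG family, and the comparison asked how the transcriptome differed between the genotypes at each time point.

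In canonical Wnt signaling, a ligand bound to a Frizzled receptor and its LRP coreceptor halts the complex of Axin, APC and GSK3 that otherwise marks beta-catenin for destruction. Stabilized beta-catenin then enters the nucleus and activates target genes with TCF/LEF factors, which sustains the stem cells at the base of the intestinal crypt. Several targets feed back on the pathway: Axin2 rebuilds the destruction complex, RNF43 and ZNRF3 are ubiquitin ligases that remove Frizzled from the cell surface, NKD1 binds Dishevelled, and Notum strips the lipid from secreted Wnt ligands. R-spondin, bound to LGR receptors, clears RNF43 and ZNRF3 and so raises the response to Wnt.

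Between 22035316 and 29661084 reads lay on genes in each of the 18 libraries (median 26258539), so that 3 reads correspond to a normalized count of 2.51 to 3.50. Values below are the counts deposited by the authors, each divided by 1 factor per library within the table of its time point, and log2 fold changes compare libraries labelled Mtgr1-/- with WT on log2(normalized count + 1), which understates the change of low genes. Words such as lower, higher, fell and rose refer to that comparison within a time point, unless a change over time is named. Mtgr1, listed as Cbfa2t2, was not called lower in the libraries labelled Mtgr1-/- at any time point. Its log2 fold change was -0.05 in crypts (adjusted p = 0.917, limma), 0.37 at day 1 (adjusted p = 0.0557, limma) and 0.06 at day 3 (adjusted p = 0.686, limma). Whether the counted exons include the part removed by the null allele is not given in the sources used here, so genotypes are used as labelled. Olfm4, a stem cell marker, separated the genotypes at each time point, with at most 512 against at least 25673 in crypts.

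TCF factors recognize the core ATCAAAG or TTCAAAG, and the 250 bases before each annotated start were searched for these letters on both strands (RefSeq sequences, GRCm38.p6). Windows of 6 of the 10 members were searched, 9 windows in all, and 2 of them held ATCAAAG. No window was at hand for Znrf3 and Notum. Apcdd1 and Bambi were left out of the search, so whether their windows hold a match was not tested. Among all 32851 windows of that length, 3.21% held ATCAAAG, 4.46% held TTCAAAG and 7.48% held either. The 3 windows shown are the 2 with a match, of Sp5 and Tnfrsf19, and that of Axin2, which held no match. At day 1, Axin2 and Tnfrsf19 were lower in enteroids labelled Mtgr1-/- than in WT, and Sp5 was higher. The core is in capitals, as it reads on the gene's strand, 104 bases before the start for Sp5 (on the opposite strand) and 202 bases before 1 of 2 annotated starts for Tnfrsf19. A match describes letters and is not a bound site.
Axin2, chr11:108920099-108920348, + strand: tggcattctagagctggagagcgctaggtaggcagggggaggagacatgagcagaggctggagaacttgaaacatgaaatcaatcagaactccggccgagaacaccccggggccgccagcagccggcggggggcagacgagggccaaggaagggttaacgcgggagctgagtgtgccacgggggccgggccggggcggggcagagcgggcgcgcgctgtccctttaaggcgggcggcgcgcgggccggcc
Sp5, chr2:70474673-70474922, + strand: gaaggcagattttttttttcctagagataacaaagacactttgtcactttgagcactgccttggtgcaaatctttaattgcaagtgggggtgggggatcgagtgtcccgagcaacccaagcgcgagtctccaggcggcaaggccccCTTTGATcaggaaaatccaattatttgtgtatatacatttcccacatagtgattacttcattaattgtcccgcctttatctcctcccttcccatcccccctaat
Tnfrsf19, chr14:61037988-61038237, - strand: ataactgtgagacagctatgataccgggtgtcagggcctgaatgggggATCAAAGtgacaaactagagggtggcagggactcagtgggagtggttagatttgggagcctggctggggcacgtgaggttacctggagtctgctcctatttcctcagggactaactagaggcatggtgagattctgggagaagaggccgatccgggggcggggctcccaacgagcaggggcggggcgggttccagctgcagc

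In crypts, most of these genes were not called different between the genotypes. Of the 9 members tested (mean of 10 or more over the 6 libraries), 1 (Prox1) was called higher in the libraries labelled Mtgr1-/-, 0 were called lower and 8 were not called, against 4.73% called among all 12980 genes tested, 1.58% higher and 3.15% lower (adjusted p below 0.05, limma). The 2 genotypes did not overlap for 2 of these 9 members, Prox1 and Bambi, and for 25.5% of all genes. The median log2 fold change was -0.05 over the 9 members and 0.01 over all genes. For Axin2, Rnf43, Znrf3 and Sp5, the 95% intervals of limma in crypts lay between -0.62 and 0.85. Those of Nkd1 (-0.50 to 2.01), Tnfrsf19 (-1.68 to 0.62) and Apcdd1 (-1.69 to 1.38) were wider, so larger differences were not excluded. The interval of Bambi, also not called, lay below 0 (-2.71 to -0.64). At day 1, 7 of 9 members were called lower in the libraries labelled Mtgr1-/-, 1 (Sp5) was called higher and 1 (Prox1) was not called. Of all genes tested, 28.9% were called lower, 30% higher and 58.9% in either direction. The 8 members called did not overlap, against 68.1% of all genes. At day 3, 6 of 9 were lower and 0 higher, against 29.1% called lower, 29.9% higher and 59% in either direction, and those 6 did not overlap, against 68.8% of all genes. The median of the members was -1.23 at day 1 and -2.26 at day 3, and that of all genes was within 0.01 of 0 at both. Because the RNA came from whole crypts or enteroids, fewer cells of a type and less RNA per cell cannot be told apart.

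**Figure D1:**
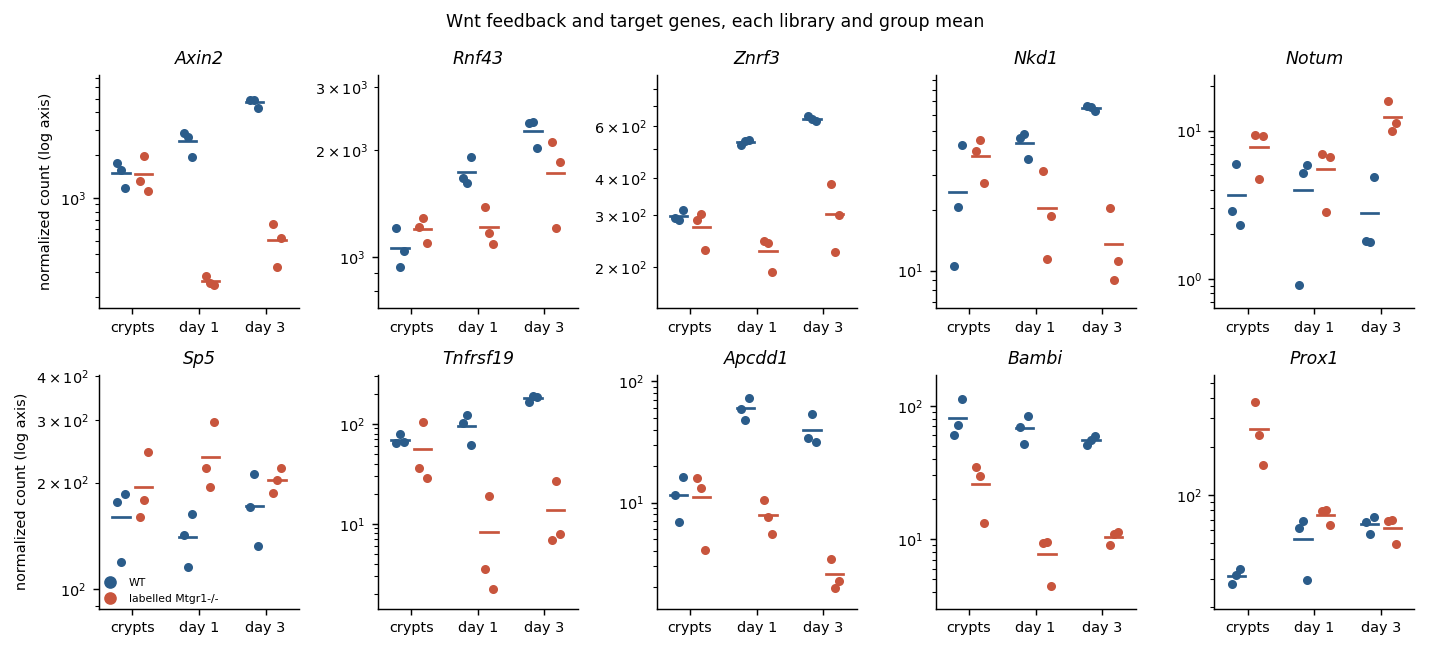
Normalized counts (log axis) of the 10 members in crypts and in day 1 and day 3 enteroids. Each point is a library (3 per genotype and time point), and the bar is the group mean. Axin2 lies between 1117 and 1984 in all 6 crypt libraries but at no more than 656 in enteroids labelled Mtgr1-/-, against at least 1952 in WT enteroids.

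**Figure D2:**
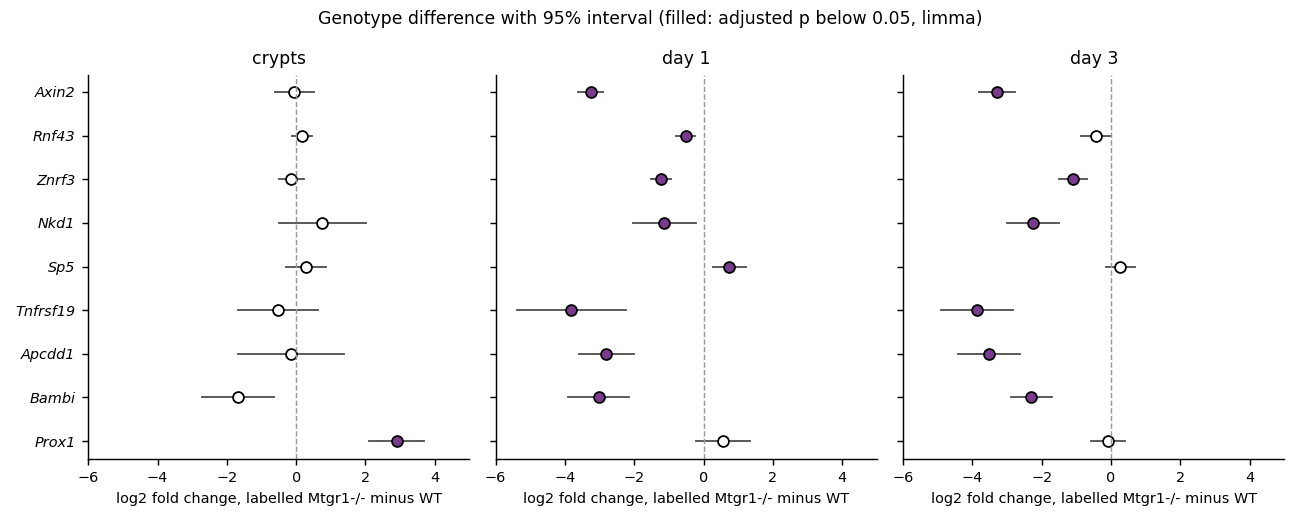
Log2 fold change of 9 members, libraries labelled Mtgr1-/- minus WT, with the 95% interval of limma, in each time point. Filled points have an adjusted p below 0.05. Prox1 is the filled point in crypts, at 2.90, and 7 of the 8 filled points at day 1 and all 6 at day 3 lie below 0.

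Axin2 (ENSMUSG00000000142.15, GRCm38 chromosome 11, 108920349 to 108950783) was the most abundant member per kilobase of exon in every WT group. Crypt libraries held 1757, 1582 and 1164 in WT and 1313, 1984 and 1117 under the label Mtgr1-/-. The 2 groups overlapped, with a log2 fold change of -0.05 and a 95% interval from -0.62 to 0.52. At day 1 the WT libraries held 2861, 2695 and 1952 and the others 283, 252 and 242. At day 3 they held 4892, 4890 and 4330 against 656, 323 and 524. No enteroid library labelled Mtgr1-/- came near a WT enteroid library, and expression was 9.52-fold lower at day 1 (log2 fold change -3.25, SE 0.16, adjusted p = 1.81e-05, limma) and 9.75-fold lower at day 3 (-3.28, adjusted p = 2.42e-05, limma). By size, this difference ranked 240 among all genes with a negative fold change at day 1 and 234 at day 3.

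The 2 ubiquitin ligases that act on Frizzled moved less than Axin2. Znrf3 (ENSMUSG00000041961.14, chromosome 11, 5276324 to 5444847) was at 292, 288 and 313 in WT crypts and 288, 302 and 229 in crypts labelled Mtgr1-/-. The groups overlapped there. At day 1 it was at 518, 535 and 536 in WT against 246, 241 and 193 in the others, and at day 3 at 647, 634 and 622 against 382, 225 and 299.8. The enteroid groups were fully separate, and Znrf3 was 2.34-fold lower at day 1 (adjusted p = 0.000316, limma) and 2.14-fold lower at day 3 (adjusted p = 0.00132, limma). Rnf43 (ENSMUSG00000034177.15, chromosome 11, 87662722 to 87735539) held 1205, 937 and 1042 in WT crypts and 1211, 1290 and 1094 in the others. At day 1 the WT libraries were at 1672, 1611 and 1914 and the libraries labelled Mtgr1-/- at 1384, 1166 and 1084. These did not overlap, and Rnf43 was 1.43-fold lower than in WT (log2 fold change -0.52, adjusted p = 0.00658, limma). Day 3 values of 2388, 2393 and 2020 stood against 2111, 1203 and 1846, which overlapped through the first library labelled Mtgr1-/-, and the difference of -0.43 was not called (adjusted p = 0.0836, limma). Without that library it was -0.60 and called (adjusted p = 0.0199, limma, with a range of 0.0199 to 0.20 over 17 alternatives).

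Of the other feedback genes, Nkd1 (ENSMUSG00000031661.12, chromosome 8, 88521354 to 88594884) was a low gene. Crypt libraries held 10.5, 20.8 and 42.6 in WT against 39.6, 44.7 and 27.4 in the libraries labelled Mtgr1-/-, with overlap. At day 3 it was at 66.3, 65.9 and 62.9 in WT against 20.5, 8.95 and 11.2 in the others. All WT libraries were the higher ones, and Nkd1 was 4.79-fold lower in the others (log2 fold change -2.26, SE 0.33, adjusted p = 0.000742, limma). Day 1 values were 45.7, 47.9 and 36.0 in WT against 31.5, 11.4 and 18.7. Those groups did not overlap either, and the log2 fold change of -1.14 passed the threshold (adjusted p = 0.0360, limma). That call was lost without WT library 1, 2 or 3 or without library 2 or 3 labelled Mtgr1-/-, where the adjusted p was 0.101, 0.106, 0.0566, 0.0748 and 0.0738 (limma, with a range of 0.0151 to 0.106 over 16 alternatives). It was also lost after quantile normalization (-0.87, adjusted p = 0.101, limma) and with Xist as a covariate (-1.13, adjusted p = 0.0506, limma).

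Notum (ENSMUSG00000042988.10, chromosome 11, 120653788 to 120661175) lay below the minimum mean of 10 at every time point, so the fits used above leave it out. At day 3 it was at 1.79, 1.78 and 4.84 in WT against 15.9, 9.94 and 11.2 in the libraries labelled Mtgr1-/-. These values rest on 9 reads in the WT group and 34 in the other. The groups did not overlap, and the libraries labelled Mtgr1-/- were the higher ones, opposite to Axin2. In a fit of all genes without that minimum, Notum was called higher at day 3 (log2 fold change 1.88, adjusted p = 0.00895, limma), but not in crypts (0.93, adjusted p = 0.43, limma) or at day 1 (0.51, adjusted p = 0.54, limma). An exact permutation test (two-sided) of 3 libraries against 3 cannot give a p below 0.1. In crypts and at day 1 its normalized counts were between 0.915 and 9.42, and the groups overlapped.

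Apcdd1, which codes for a membrane glycoprotein that inhibits Wnt signaling, was at 11.5, 6.93 and 16.1 in WT crypts and at 16.0, 13.3 and 4.07 in crypts labelled Mtgr1-/-. The groups overlapped. At day 1 it was at 59.4, 47.9 and 72.9 in WT against 10.5, 7.59 and 5.51 in the others, and at day 3 at 34.1, 54.3 and 31.9 against 3.41, 1.99 and 2.25. The WT level was higher in enteroids than in crypts, while that of the other genotype was not. Apcdd1 was thus lower than in WT at day 1 (log2 fold change -2.80, adjusted p = 0.000547, limma) and at day 3 (-3.51, adjusted p = 0.00021, limma). At day 3 the libraries labelled Mtgr1-/- held 7 reads in all, so the size depends on the pseudocount, with -3.92 for 0.1 and -2.16 for 8.

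Bambi codes for a decoy receptor without a kinase domain that damps TGF-beta and BMP signals, and it is also a beta-catenin target. It was the member for which crypts already separated downward. Crypt libraries held 60.4, 72.3 and 112 in WT against 34.8, 29.5 and 13.2 in the libraries labelled Mtgr1-/-. Every WT value was the higher one, but the log2 fold change of -1.68 did not pass the threshold (adjusted p = 0.0869, limma, with a range of 0.0184 to 0.206 over 17 alternatives). At day 1 Bambi was at 69.5, 52.1 and 83.8 in WT against 9.33, 9.48 and 4.41 in the others, and at day 3 at 51.1, 55.2 and 59.0 against 9.10, 10.9 and 11.2. Both enteroid groups were separate, with log2 fold changes of -3.03 (adjusted p = 0.000571, limma) and -2.30 (adjusted p = 0.000207, limma).

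Tnfrsf19 (ENSMUSG00000060548.13, chromosome 14, 60963875 to 61046490), also called Troy, is a TNF receptor family member expressed by crypt base stem cells. In crypts it was at 64.2, 79.2 and 65.6 in WT against 35.8, 106 and 28.5 in the libraries labelled Mtgr1-/-, where the second library lay above all WT libraries. Day 1 libraries held 102, 123 and 62.0 in WT against 3.50, 19.0 and 2.21. At day 3 they were 165, 191 and 188 against 6.83, 26.8 and 7.86. The mouse with the highest crypt value among those labelled Mtgr1-/- was also the highest of its genotype in enteroids, yet below every WT library. Tnfrsf19 was lower than in WT enteroids, with log2 fold changes of -3.81 at day 1 (SE 0.67, adjusted p = 0.0022, limma) and -3.87 at day 3 (SE 0.45, adjusted p = 0.000276, limma). At day 1 libraries 1 and 3 labelled Mtgr1-/- rest on 3 and 2 reads. The size at day 1 therefore depends on the pseudocount, with -2.77 for 8, where Axin2 was at -3.22.

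Sp5 and Prox1, the 2 transcription factor genes, did not follow Axin2. Sp5 (ENSMUSG00000075304.2, chromosome 2, 70474923 to 70477729) codes for a zinc finger factor induced by Wnt that acts on other Wnt target genes. In crypts it was at 176, 119.8 and 185 in WT against 160.1, 179 and 244 in the libraries labelled Mtgr1-/-, with overlap. At day 1 it was at 143, 116 and 163 against 220.4, 194 and 296. Here every library labelled Mtgr1-/- was the higher one, and Sp5 was 1.67-fold higher (log2 fold change 0.74, SE 0.21, adjusted p = 0.0164, limma). As CPM (recovered reads scaled to the library total) its means were 7.91 against 5.89 in WT, a smaller difference. Without WT library 2 the log2 fold change was 0.61 and no longer called (adjusted p = 0.0579, limma, with a range of 0.00517 to 0.0579 over 17 alternatives). Day 3 libraries held 170.3, 212 and 133 in WT against 187, 204 and 220.1, which overlapped (log2 fold change 0.27, adjusted p = 0.243, limma). The rise at day 1 was not shown to differ from crypts, with a change of 0.46 and a 95% interval from -0.21 to 1.14 (adjusted p = 0.262, limma).

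Prox1 (ENSMUSG00000010175.13, chromosome 1, 190118035 to 190170714) codes for a homeobox factor that is a beta-catenin target in intestinal tumors and is expressed in enteroendocrine and tuft cells of the healthy epithelium. In crypts it was at 27.8, 31.7 and 34.5 in WT against 378, 237 and 155 in the libraries labelled Mtgr1-/-. The lowest of the latter was several times the highest WT library, and Prox1 was 7.48-fold higher (log2 fold change 2.90, SE 0.34, adjusted p = 0.00582, limma), with rank 81 among all genes with a positive fold change. At day 1 it was at 62.2, 68.7 and 29.3 against 79.3, 80.6 and 65.1, and at day 3 at 68.1, 57.0 and 72.6 against 68.3, 69.6 and 49.4. Neither enteroid comparison was called (adjusted p = 0.181 and 0.743, limma).

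Markers of these 2 cell types also differed between the genotypes in crypts. The summed normalized count of 10 tuft markers was 1682, 1544 and 1937 in WT crypts and 7591, 2336 and 5785 in crypts labelled Mtgr1-/-, and did not overlap, as was so for 25.5% of single genes. Of these 10 genes, 1 was called higher (Gfi1b, log2 fold change 2.62, adjusted p = 0.0404, limma) and 0 lower, with a median of 1.81, and the other 9 were not called. Among all genes, 1.58% were called higher in crypts. All 11 enteroendocrine markers tested were called lower (3.15% of all genes), and their sum was 359 to 544 against 6259 to 9773 in WT. The crypt order of the 3 mice labelled Mtgr1-/- differed between Prox1, highest in mouse 1 and lowest in mouse 3, and the tuft sum, lowest in mouse 2. In enteroids labelled Mtgr1-/- the tuft sum was 419 to 615 at day 1 and 445 to 504 at day 3, below every WT library of the time point. The part of these cell types in the Prox1 values was not tested.

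**Figure D3:**
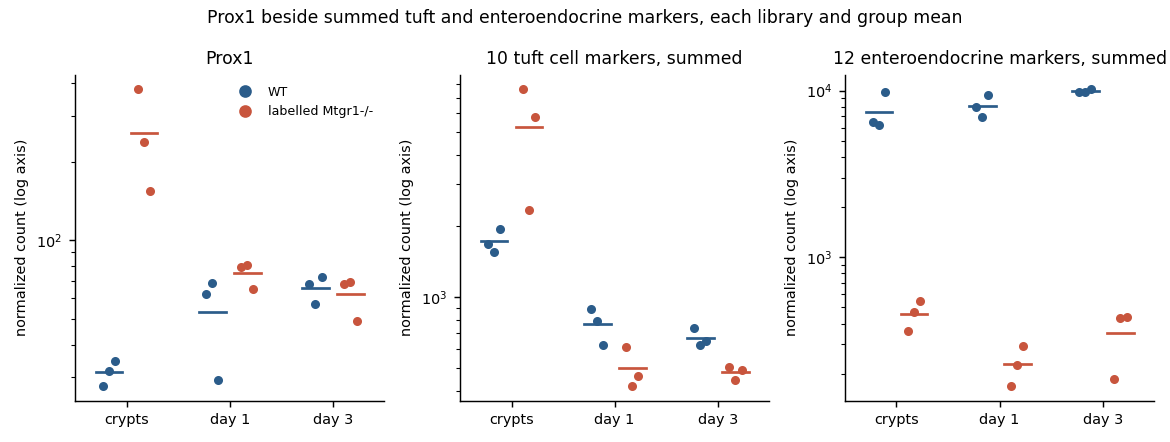
Normalized counts (log axis) of Prox1 and the summed normalized counts of 10 tuft and 12 enteroendocrine markers. Each point is a library and the bar is the group mean of 3. In crypts labelled Mtgr1-/-, Prox1 (155 to 378) and the tuft sum (2336 to 7591) lie above all WT crypts, while the enteroendocrine sum (359 to 544) lies below them.

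The genotype difference itself changed between crypts and culture for most members. These tests used all 18 libraries, and the contrasts share libraries, so they are not independent of each other. From crypts to day 1 a more negative difference was called for 8 of 9 members, against 20% of the 12937 genes tested (39.4% in either direction). The changes were -3.20 for Axin2 (SE 0.34, adjusted p = 0.000151, limma), -3.28 for Tnfrsf19, -2.65 for Apcdd1, -2.34 for Prox1, -1.89 for Nkd1, -1.35 for Bambi, -1.09 for Znrf3 and -0.70 for Rnf43. The within-mouse changes of the 2 genotypes did not overlap for these 8 genes or for Sp5, which was not called, nor for 53.5% of all genes. For Axin2, log2 expression rose by 0.70 to 0.77 from crypts to day 1 in the WT mice and fell by 2.20 to 2.97 in the mice labelled Mtgr1-/-. Prox1 reached its negative change from a raised start, as it fell by 1.23 to 2.24 in the mice labelled Mtgr1-/- and changed by -0.23 to 1.13 in WT. The calls of Rnf43, Nkd1 and Bambi were the least firm. Rnf43 was lost without WT mouse 2 or 3 or mouse 3 labelled Mtgr1-/- (changes of -0.66, -0.61 and -0.69), and Nkd1 without WT mouse 1 or 2 or mouse 2 or 3 labelled Mtgr1-/- (-1.38, -1.80, -1.41 and -2.09). Bambi was lost without any mouse but mouse 3 labelled Mtgr1-/- (-1.14 to -1.47). The Bambi call was also lost with a pseudocount of 8 (-0.85, adjusted p = 0.088, limma) and without the minimum mean (-1.35, adjusted p = 0.060, limma). It held in 5 of 12 alternatives. The count dropped to 5 of 9 without WT mouse 1 (Nkd1, Tnfrsf19 and Bambi lost) or without WT mouse 2 (Rnf43, Nkd1 and Bambi lost).

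From crypts to day 3 the change was negative and called for 6 of 9 members, against 14.4% of all genes (30.6% in either direction). These were Apcdd1 (-3.36), Tnfrsf19 (-3.34), Axin2 (-3.23), Nkd1 (-3.02), Prox1 (-2.99) and Znrf3 (-0.97). The changes of Bambi (-0.62), Rnf43 (-0.61) and Sp5 (-0.01) also lay below 0 but were not called. The value for Tnfrsf19 was no longer called without WT mouse 1, 2 or 3 (adjusted p = 0.0613, 0.0551 and 0.0514, limma, with a range of 0.000229 to 0.0613 over 12 alternatives). From day 1 to day 3, 0 of 9 members changed at an adjusted p below 0.05 in limma and 0 at an unadjusted p below 0.05, where 4 of 12937 genes (0.0309%) were called. The interval for Axin2 ran from -0.76 to 0.69, so a further change of less than that size was not detectable.

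Levels across time are a description, since the tables were normalized separately. In WT, the mean of Axin2 was 1.67 times the crypt mean at day 1 and 3.13 times at day 3, and Rnf43, Znrf3, Nkd1 and Tnfrsf19 stood at 2.13 to 2.64 times the crypt mean at day 3. Apcdd1 stood at 5.22 and 3.48 times and Prox1 at 1.70 and 2.10 times at these time points, while Sp5 was at 0.88 and 1.07 and Bambi at 0.84 and 0.68 of the crypt mean. In the libraries labelled Mtgr1-/-, Axin2 was at 0.18 of its crypt mean at day 1 and 0.34 at day 3. Tnfrsf19 stood at 0.15 and 0.24, Nkd1 at 0.55 and 0.36, and Bambi at 0.30 and 0.40. Apcdd1 was at 0.71 and 0.23, and Prox1 at 0.29 and 0.24. Znrf3 was at 0.83 and 1.11, Rnf43 at 1.01 and 1.44, and Sp5 at 1.22 and 1.05. On this scale these last genes were not below their crypt mean at day 3. As CPM (recovered reads scaled to the library total) the ratios of Axin2 to crypts were 1.78 and 3.32 for WT, against 0.15 and 0.31 for the other genotype. Per kilobase of exon, mean normalized counts in WT day 3 enteroids ran from 854 for Axin2 and 346 for Rnf43 through 81.7 for Sp5, 80.4 for Znrf3, 38.2 for Tnfrsf19, 14.3 for Nkd1, 10.9 for Bambi and 7.86 for Prox1 to 3.11 for Apcdd1 and 1.16 for Notum.

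The rest of the pathway was read from lists of its parts, given as counts of genes called. These counts stand against 1.58% of all genes called higher and 3.15% lower in crypts, 30% and 28.9% at day 1, and 29.9% and 29.1% at day 3, so a list with shares close to these is at the level of all genes. In the destruction complex and beta-catenin list, 0 of 12 genes tested were called in crypts, 5 were higher and 1 lower at day 1, and 4 were higher and 1 lower at day 3 (all genes 29.9% and 29.1%). Ctnnb1, which codes for beta-catenin, was higher at day 1 (35464 ± 3075 against 27429 ± 3056 in WT, SD, n = 3, adjusted p = 0.0400, limma) and at day 3 (33438 ± 1877 against 22550 ± 832, adjusted p = 0.00153, limma). As CPM its means were 1189 against 1149 in WT at day 1 and 1214 against 941 at day 3, so little of the day 1 difference is seen on that scale. Gsk3a and Tnks, a tankyrase that marks Axin for degradation, rose with it (log2 fold changes of 0.49 and 0.53 at day 1), with CPM means of 134 against 119 and 97.7 against 84.5. Amer1, an APC-binding scaffold, was the gene of this list that fell (-0.78 at day 1 and -0.70 at day 3).

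Among TCF/LEF factors and their cofactors, 0 of 12 were called in crypts, 3 were higher and 4 lower at day 1, and 2 were higher and 4 lower at day 3, next to 29.9% and 29.1% of all genes. Tcf7 fell at both enteroid time points (log2 fold changes of -1.43 and -1.38), as did the corepressor Tle3 (-1.37 and -1.07) and the beta-catenin cofactor Bcl9 (-0.46 and -0.49). Tle5, a short Groucho family protein, was higher at both (0.80 and 0.63), and Tcf7l2 was higher at day 1 (0.57). As CPM, Tcf7l2 was at 32.8 against 27.6 in WT at day 1.

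Among Frizzled, LRP and LGR receptors and Dishevelled proteins, 1 of 15 was lower in crypts, 5 of 16 were higher and 6 lower at day 1, and 3 were higher and 6 lower at day 3, again beside shares of 29.9% and 29.1% over all genes. The gene called in crypts was Fzd2, at 61.3, 55.4 and 36.8 in WT against 2.83, 2.85 and 0 in the libraries labelled Mtgr1-/-. Fzd2 and Fzd9 also fell in enteroids (-4.69 and -2.91 at day 3), together with Lgr5, the R-spondin receptor and stem cell marker (-3.40 at day 1 and -4.47 at day 3). Fzd4 was the receptor with the largest rise (1.20 at day 1 and 0.76 at day 3).

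Among other Wnt antagonists, 1 of 7 genes tested was lower in crypts, and 8 were tested in enteroids, of which 4 were lower and 1 higher at day 1 and 5 lower and 1 higher at day 3 (29.1% and 29.9% of all genes). Sfrp5, a secreted decoy for Wnt ligands, was at 37.4, 54.4 and 123 in WT crypts and 0, 0.951 and 0 in crypts labelled Mtgr1-/-. At day 1 it was at 77.7, 125 and 79.6 in WT and at 0 in the 3 other libraries, at least 29.2-fold lower (against 3 reads per library). Cxxc5, which binds Dishevelled, fell 4.18-fold at day 1 (adjusted p = 0.000381, limma), and Kremen1, a receptor for Dickkopf inhibitors, was the gene that rose (0.36 at day 1 and 0.47 at day 3). As CPM, Kremen1 was at 28.5 against 27.8 in WT at day 1 and 34.6 against 28.7 at day 3.

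Other crypt target genes of beta-catenin fell as a list in the counts. In crypts 1 of 16 was lower (Ccnd1, which codes for cyclin D1, at 1233 ± 346 against 3035 ± 829 in WT, SD, n = 3) and 0 were higher, while 15 of 16 were lower and 0 higher at day 1 and again at day 3, where 28.9% and 29.1% of all genes were lower. Their median log2 fold change was -0.25 in crypts, -1.63 at day 1 and -1.64 at day 3. Smoc2 had log2 fold changes of -3.29 and -3.38, and Mmp7, a Paneth cell protease, of -5.54 and -3.39. Of the SP and KLF factors related to Sp5, 0 of 8 were called in crypts, 1 was higher (Klf4, 1.16) and 1 lower (Sp4, -0.61) at day 1, and 3 were higher and 1 lower at day 3 (Klf6, 1.25, and Sp1, -0.29, among them), with 29.9% and 29.1% over all genes.

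**Figure D4:**
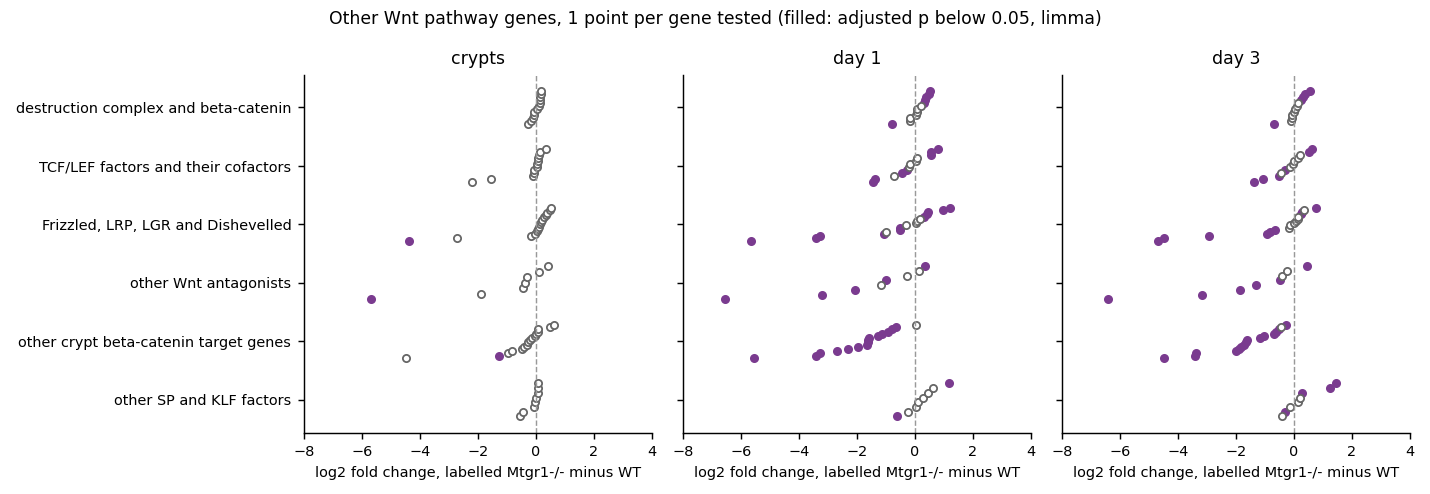
Log2 fold change, libraries labelled Mtgr1-/- minus WT, of the genes in 6 lists of Wnt pathway genes other than the 10 members, 1 point per gene tested, by time point. Filled points have an adjusted p below 0.05 (limma). The other crypt target genes of beta-catenin show 1 filled point in crypts and 15 to the left of 0 at both enteroid time points.

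Markers of whole cell types differed between the genotypes in enteroids and, for the secretory types, also in crypts, where 8 of 9 members were not called. Their part in the results was not tested. Among all genes, 3.15% were called lower in crypts, 28.9% at day 1 and 29.1% at day 3. Of 7 goblet cell markers tested, 7 were lower in crypts, at day 1 and at day 3, with median log2 fold changes of -4.39, -4.50 and -3.61. Their sum in crypts was 4766 to 7710 under the label Mtgr1-/- and 151470 to 174223 in WT. The 11 enteroendocrine markers tested in crypts had a median of -5.15. Paneth cell markers had a median of -4.81 in crypts, where 1 of 10 was called lower. Their sum there was 2032, 51139 and 1844 in the libraries labelled Mtgr1-/- against 141510 to 186586 in WT. Library 2 of that genotype, which also had the highest crypt value of Axin2 and Tnfrsf19, stood apart from the other two but below every WT library. At both enteroid time points 9 of 10 Paneth markers were lower and 1 was higher. There, 10 of 10 enterocyte markers were higher, against 30% of all genes at day 1 and 29.9% at day 3.

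Of 8 crypt base stem cell markers, 2 were lower in crypts and 8 at both day 1 and day 3, with medians of -0.75, -3.91 and -3.92. The shares of all genes called lower were 3.15%, 28.9% and 29.1%. Olfm4 makes up most of the summed WT level of this list. Without it, the 7 other markers summed to 3169 to 6375 in crypts labelled Mtgr1-/- against 5879 to 6374 in WT, which overlapped. At day 1 that sum was 1391 to 1821 against 9371 to 12606, and at day 3 it was 1832 to 3172 against 18625 to 21031, with no overlap. Of 8 markers of cycling cells, 0 were lower in crypts, 7 at day 1 and 8 at day 3, beside the same shares of all genes. Fibroblast and smooth muscle markers summed to at most 135 in any library and endothelial markers to at most 314. Leukocyte markers summed to 1065, 999.9 and 11977 in WT crypts, where library 3 stood apart. In the other crypts they summed to 403 to 1381, with 0 of 9 called. In enteroids labelled Mtgr1-/- the leukocyte sum of library 3 was 749 at day 1 and 957 at day 3, against at most 75.6 in the others. WT library 3 held 375 at day 1.

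Across the 18 libraries, with the mean of each table subtracted, the 5 genes most like Axin2 among 10589 were Smoc2, Qsox2, Ptpro, Stmn1 and Scn2b (Pearson correlation 0.990 to 0.981). Of the members with a mean of at least 50 in every table, Znrf3 (0.968) and Tnfrsf19 (0.896) were most like it, Rnf43 stood at 0.785, Prox1 at -0.10 and Sp5 at -0.64. The genes most like Sp5 were Pld3, Gpr108, Ocel1, Hook2 and Ccdc120 (0.874 to 0.859). Libraries share mice and genotype, so these are descriptions, and by Spearman correlation 0 of the 5 genes named for Axin2 and 1 of the 5 for Sp5 were again among the first 5.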

How the data were processed

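Stranded mRNA libraries were trimmed with fastp 0.20.0, quantified with Salmon 1.3.0 and compared with DESeq2 1.26.0, per the submitters' processing notes. The authors deposited a signal per library, the normalized count, in which gene counts were scaled by 1 factor for each library and each time point was normalized alone. The tables also hold the authors' mean signal, log2 fold changes and standard errors, Wald score and p-value columns, as deposited, and none of these was used.

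limma 3.58.1 (trend, two-sided) in R 4.3.3 was run on log2(normalized count + 1) for genes averaging 10 or more, 3 libraries against 3, with Benjamini-Hochberg adjustment over all genes tested and a threshold of 0.05. Changes of the genotype difference came from a fit of 18 libraries in which the mouse was a random effect (correlation 0.00576). Reads were recovered from the step between low values, and in all 18 libraries 100% of values divided by it were whole within 0.001. In 2 libraries the step was near 1, at 0.990 (WT crypts, library 2) and 0.994 (day 3, library 2 labelled Mtgr1-/-). Before the division 0.113% and 0.134% of their values were whole, and they were kept in the count tests. On these reads edgeR 4.0.16 called 559 (crypts), 7383 (day 1) and 7605 (day 3) genes, and DESeq2 1.42.0 called 1379, 7509 and 7597. The limma, edgeR and DESeq2 fits were tested on simulated data, and the other steps were not.

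Mouse numbers come from the labels. WT libraries and libraries labelled Mtgr1-/- with the same number are different mice. Their deviations from the group mean correlated across genes by 0.116, 0.231 and 0.216 at day 1, where unlike numbers gave at most -0.015. In crypts they correlated by 0.076, 0.274 and 0.346, with at most 0.20 for unlike numbers. At day 3 the values were about 0, with at most 0.105 for unlike numbers. The main fits did not use this pairing. Replicates are separate mice. Fits without each library, with pseudocounts of 0.1 and 8, other filters and scalings, no trend, Xist as a covariate, a mouse block and count tests were the alternatives. The CPM scale and the stem marker sum without Olfm4 were added after seeing the data. Named genes were all 10 members, Cbfa2t2, up to 3 rises and 3 falls called in each pathway list and time point by size, and 5 genes most like Axin2 and Sp5. Olfm4, Gfi1b and values beside them were chosen after their values were seen. The members, lists and tests were chosen with earlier results of these data known. Positions follow GENCODE on GRCm38. Overlaps with other genes were read from whole gene spans, introns included. Genes on the opposite strand overlap the spans of Axin2, Notum, Prox1, Rnf43 and Tnfrsf19. Gm45496 overlaps Nkd1 on the same strand, and 1110028F11Rik, annotated as intronic, overlaps Rnf43 on the same strand. Whether exons overlap was not examined, and whether strand was used in counting is not given in the sources used here. It is therefore not known whether any reads are shared.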

Additional observations from a re-analysis of the deposited data

Results flagged for a closer look

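The genotype difference of 8 members differed between crypts and an enteroid time point by an interaction test in limma (adjusted p below 0.05), which makes 14 results. Values are the log2 fold change in enteroids minus that in crypts. From crypts to day 1 they were -3.20 for Axin2, -0.698 for Rnf43, -1.094 for Znrf3, -1.893 for Nkd1, -3.283 for Tnfrsf19, -2.65 for Apcdd1, -1.351 for Bambi and -2.338 for Prox1. From crypts to day 3 they were -3.234 for Axin2, -0.965 for Znrf3, -3.017 for Nkd1, -3.337 for Tnfrsf19, -3.361 for Apcdd1 and -2.99 for Prox1. For Prox1 the change came from a crypt difference of 2.90 that was -0.09 at day 3, and for Axin2 from a crypt difference of -0.05 that was -3.28 at day 3. No rule for single libraries far from the others was applied to these groups of 3 libraries.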

How the results depend on the processing

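With the mouse number as a replicate block, 1 member was called in crypts, 8 at day 1 and 6 at day 3, as without it, and the block changed no member's call; over all genes 562, 8027 and 7289 were called. Of the single-gene results under each alternative, 755 kept direction and side of the threshold, 26 lost their call, 4 gained one and 20 changed direction. In crypts DESeq2 called 2 members (Prox1 and Bambi) and 1379 genes against 614, and leaving out 1 library gave 176 to 608 genes. With a minimum mean of 50 fewer members were tested, and 5 were called at day 1 and 3 at day 3. For the change from crypts to day 1, leaving out 1 mouse gave 5 to 7 members and 3367 to 5596 genes, and from crypts to day 3 1745 to 3819 genes. From day 1 to day 3 the count of 4 genes became 53 with a pseudocount of 8, 42 with the mouse as a fixed effect (a replicate block) and 0 to 891 with 1 mouse left out.

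The log2 fold changes that changed direction were not called in any fit. In crypts Apcdd1 was 0.31 after quantile normalization and -0.49 to 0.39 with 1 library left out (0.11 and 0.39 were the values above 0), and Axin2 was -0.29 to 0.13 (0.073, 0.0097 and 0.13 above 0). Prox1 at day 3 was -0.19 to 0.071. For the change from crypts to day 3, Sp5 was 0.0013 after median-ratio rescaling and -0.30 to 0.35 with 1 mouse left out. For the change from day 1 to day 3, Tnfrsf19 was 0.10 with a pseudocount of 0.1 and -0.33 to 0.25 with 1 mouse left out, Axin2 was -0.19 to 0.23 and Rnf43 -0.069 to 0.30. As CPM, the mean of Rnf43 at day 1 was 0.84 of its crypt mean and that of Sp5 at day 3 0.96 in the libraries labelled Mtgr1-/-, against 1.01 and 1.05 as normalized counts. The cause was not tested. Depth limits Notum in both genotypes (9 and 34 reads per group at day 3), and Apcdd1 (22 and 7 reads), Bambi (22 and 29), Tnfrsf19 (25 and 40) and Nkd1 (56 and 37) in day 1 and day 3 enteroids labelled Mtgr1-/-. Without the minimum mean, 7 members were called at day 3, with Notum added.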
